A study of Mus musculus with 6 samples.

Results

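The genes described here encode the subunits of the hypoxia-inducible factors (HIF): Hif1a, Epas1 and Hif3a for the alpha subunits, and Arnt and Arnt2 for the beta subunits. They were taken by name, and all 5 of 5 had a row among the 13843 genes of the deposited table. Polyadenylated RNA was sequenced from single ventricles of E12.5 mouse embryos (midgestation) of C57BL/6 background. All 6 embryos carried 2 floxed Vhl alleles. The 3 controls had 2 wild-type Nkx2.5 alleles, with litters 1, 2 and 3 giving controls 1, 2 and 3. The 3 embryos labelled Vhl knockout (KO1 to KO3) had 1 Nkx2.5 allele that carries Cre and came from litters 1, 2 and 4 per the labels, where the series' design text names 3 litters. Cre is made where Nkx2-5 is active, mainly in the heart muscle lineage, so other cells of the ventricle may keep Vhl.

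A HIF is a pair of an alpha and a beta protein that binds DNA through a basic helix-loop-helix and a PAS region. In the presence of oxygen, prolyl hydroxylases modify the alpha subunit, and the VHL protein then marks it for destruction. The beta subunit is stable whether or not oxygen is present. Regulation of the alpha subunits is therefore known mainly at the protein level, and the mRNA measured here does not show how much HIF protein the cells held. Hif1a encodes HIF-1 alpha, Epas1 encodes HIF-2 alpha, which is abundant in endothelium, and Hif3a encodes HIF-3 alpha, some forms of which restrain the other alpha subunits. Arnt encodes the common beta partner and Arnt2 a related partner best known from neurons.

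The library labelled KO3 did not have the low Vhl level of KO1 and KO2. Vhl stood at 33.7, 36.3 and 38.6 in controls 1 to 3, at 11.1 and 10.3 in KO1 and KO2, and at 34.5 in the library labelled KO3, in scaled CPM, a read count per library size corrected by the authors' factors. The value counts reads over the whole gene and not only its deleted part. The main comparison is therefore between the 3 controls and KO1 and KO2, and the library labelled KO3 is shown apart. By its label that embryo carried Cre, beside a control-like Vhl level. The reason was not tested, and its genotype was not checked here. No other embryo with Cre and control-like Vhl was analysed here, and loss of Vhl and the Cre allele cannot be told apart in KO1 and KO2. Because that library was set apart for its Vhl value, differences that follow Vhl over the libraries are partly circular in this comparison. By the labels, litters 1 and 2 each held 1 control and 1 knockout, so the littermate values are given beside the main result. They were picked by these labels, from which the design text differs in the number of litters. They use the libraries of the main comparison without control 3, and so are no independent support for it. Libraries held 9067805 to 12592902 reads. All 10 heart muscle markers examined were measured. Their summed level was 35954 to 43858 in controls and 36813 to 40934 in KO1 and KO2. Of the 10, 0 passed in either direction by limma, edgeR or DESeq2, and 0 had an unadjusted limma p under 0.05. Limma called 4.25% of all genes, so a count of 0 of 10 is near that share. The median log2 fold change of these markers was -0.16 beside -0.01 over all genes, with 6 below 0 and 4 above.

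Promoter sequences are shown for Hif1a, the subunit gene that passed the test, and for Hif3a, an alpha subunit gene that did not pass it. HIF dimers are known to bind the core letters ACGTG and GCGTG, which were searched on both strands, with overlapping matches counted as 1 site. Both sequences run 5′ to 3′ on the gene's own strand, from 250 bases before the transcript start to 50 bases after it, from RefSeq on GRCm38.p6. Capitals mark the matches. The Hif1a window is chr12:73907617-73907916 on the plus strand and the Hif3a window is chr7:17062378-17062677 on the minus strand. The Hif1a start used, 73907867, lies inside the annotated gene, which begins at 73901375 and has 5 transcripts. Sequence before its other annotated start was not searched.
Hif1a: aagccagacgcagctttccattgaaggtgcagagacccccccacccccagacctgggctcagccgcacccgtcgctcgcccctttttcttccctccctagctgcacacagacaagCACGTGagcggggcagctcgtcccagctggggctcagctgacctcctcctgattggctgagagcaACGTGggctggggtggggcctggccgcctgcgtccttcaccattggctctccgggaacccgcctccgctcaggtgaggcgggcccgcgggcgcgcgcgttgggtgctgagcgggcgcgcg
Hif3a: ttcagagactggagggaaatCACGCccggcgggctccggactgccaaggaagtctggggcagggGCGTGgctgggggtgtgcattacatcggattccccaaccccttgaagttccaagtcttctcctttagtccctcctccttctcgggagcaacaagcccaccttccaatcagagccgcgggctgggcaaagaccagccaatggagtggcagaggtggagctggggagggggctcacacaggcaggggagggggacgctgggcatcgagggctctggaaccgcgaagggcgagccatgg
The Hif1a window held 2 ACGTG sites, beginning 135 and 70 bases before the start, the first of which reads the same on both strands. At least 2 ACGTG sites were present in 2.69% of the 32851 promoter windows of the same length, and at least 1 in 19.6%. The Hif3a window held 0 ACGTG and 2 GCGTG sites. Sites of either core numbered 1 in the Arnt window and 0 in the Arnt2 window. Epas1 had no window among those available, so its promoter was not searched. At least 2 sites of either core were present in 17.3% of all windows, which covers both Hif1a and Hif3a. A match describes letters only and was not tested for binding.

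Hif1a mRNA was the 1 subunit transcript that passed the test, and it fell. Hif1a (ENSMUSG00000021109, GRCm38 chromosome 12, 73901375 to 73947530, plus strand) measured 457, 405 and 447 in controls 1 to 3 and 185 and 163 in KO1 and KO2. In the library labelled KO3 it was at 473. Both knockouts lay far below the lowest control, with no overlap, while the library labelled KO3 lay above the highest control. The mean of KO1 and KO2 was 39.9% of the control mean. On the log2(value + 1) scale the fold change was -1.32 ± 0.09 (SE; 95% interval -1.53 to -1.12; limma adjusted p = 0.00025), lower in 2 of 2 knockouts. It was the 11th largest fall among the 172 genes that fell. The share of all genes called lower in this comparison was 1.24%, and the share called in either direction was 4.25%, against 1 of 5 subunit genes.

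The fall of Hif1a was close in size in the 2 litters that held both genotypes. Against its own littermate, KO1 differed by -1.30 and KO2 by -1.31 on the log2 scale. With litter as a block the fold change was -1.30 ± 0.08 (limma adjusted p = 9.1e-07), in a fit with 1 residual degree of freedom in which 8.13% of all genes were called. With all 6 libraries as labelled, the fold change was -0.84 ± 0.35 and did not pass (limma adjusted p = 0.77). In that fit 0% of genes were called, and 859 genes had an unadjusted p under 0.05.

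**Figure D1:**
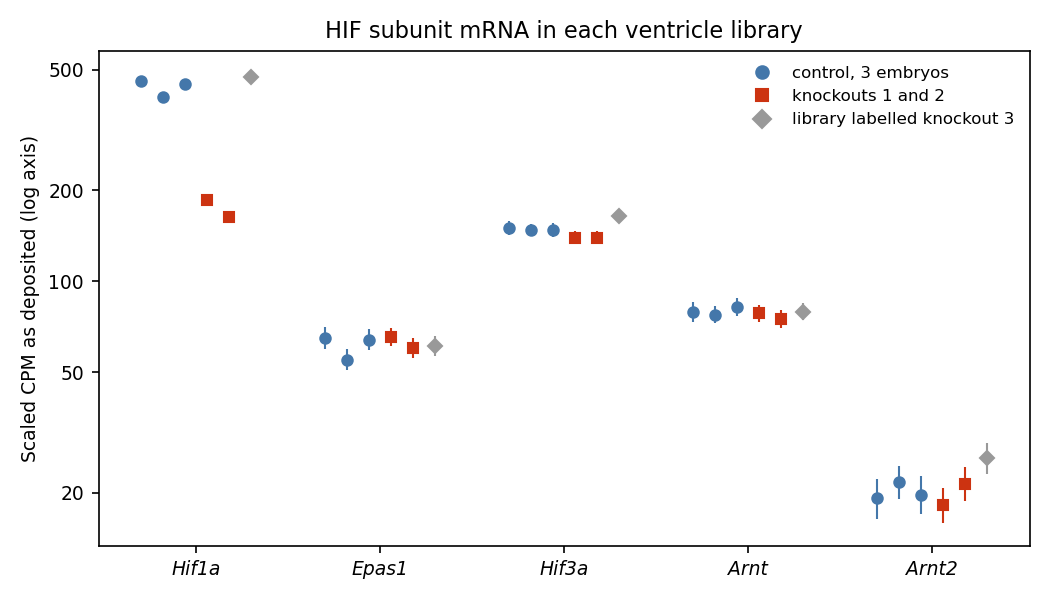
Scaled CPM of each subunit gene in each library, on a log axis, with 95% Poisson intervals for counting error as bars. Hif1a in KO1 and KO2 (185 and 163) sits apart from the 3 controls (405 to 457) and from the library labelled KO3 (473), while the groups lie closer together for the other 4 genes.

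The other alpha subunit genes did not pass the test. Epas1 (ENSMUSG00000024140, chromosome 17, 86753700 to 86833410) measured 64.9, 55.1 and 64.2 in the controls, 65.5 and 60.4 in KO1 and KO2, and 61.2 in the library labelled KO3. The groups overlapped, and control 2 was the lowest library. Its log2 fold change was 0.04 ± 0.10 with a 95% interval of -0.18 to 0.26 (limma adjusted p = 0.89). That interval does not reach a change as large as that of Hif1a.

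Hif3a (ENSMUSG00000004328, chromosome 7, 17031507 to 17062427, minus strand) measured 149.9, 147.8 and 148 in the controls, 139.3 and 139 in KO1 and KO2, and 164.6 in the library labelled KO3. KO1 and KO2 lay just below the controls without overlap, and the library labelled KO3 lay above them all. The log2 fold change was -0.09 ± 0.06, with a 95% interval of -0.24 to 0.05 (limma adjusted p = 0.50), so this difference did not pass the test. Values of controls and of KO1 and KO2 failed to overlap for 2 of the 5 subunit genes, Hif1a and Hif3a, and for 35.1% of all genes.

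The beta subunit genes did not pass either. Arnt (ENSMUSG00000015522, chromosome 3, 95434388 to 95497240) measured 79.3, 77.6 and 82.3 in the controls, 78.4 and 75.01 in KO1 and KO2, and 79.4 in the library labelled KO3. The groups overlapped, and the log2 fold change was -0.06 ± 0.07 (95% interval -0.22 to 0.11; limma adjusted p = 0.75). Arnt2 (ENSMUSG00000015709, chromosome 7, 84246278 to 84410176, minus strand) measured 19.2, 21.6 and 19.7 in the controls, 18.2 and 21.5 in KO1 and KO2, and 26.1 in the library labelled KO3. Its log2 fold change was -0.03 ± 0.12 (95% interval -0.31 to 0.25; limma adjusted p = 0.94). Arnt2 rested on 173 to 285 reads a library, against 1855 to 5166 for Hif1a, and its interval was the widest of the 5.

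**Figure D2:**
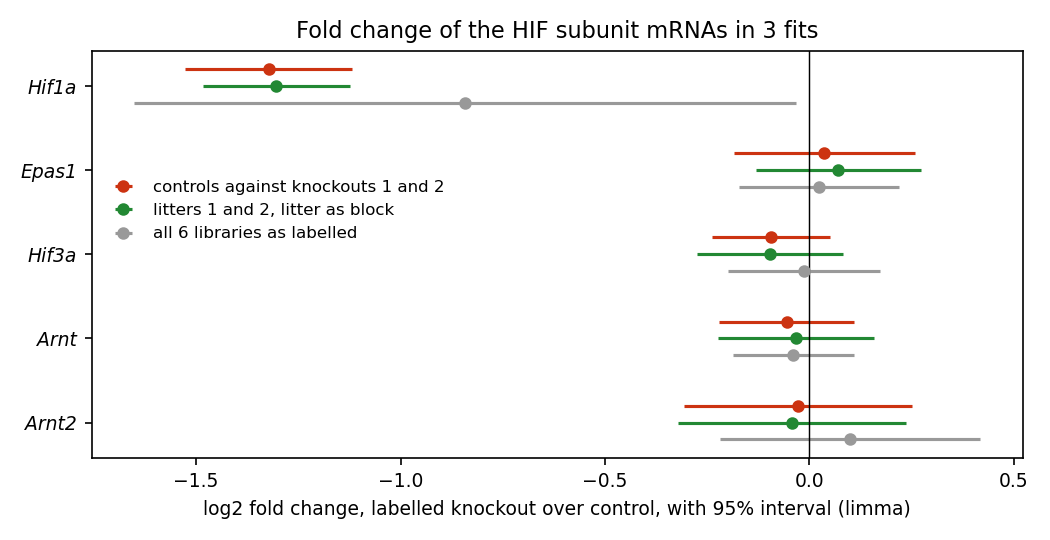
Log2 fold change of each subunit gene with its 95% interval from limma, for controls against KO1 and KO2 (red), litters 1 and 2 with litter as a block (green) and all 6 libraries as labelled (grey). Hif1a is at -1.32 and -1.30 in the first pair of fits and at -0.84 with a wide interval in the last, and the intervals of Epas1, Hif3a, Arnt and Arnt2 include 0 in each fit.

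In bulk tissue, fewer cells of a type and less RNA per cell cannot be told apart. Marker lists of other cells moved with the comparison of KO1 and KO2, and their part in the subunit values was not tested. The counts of markers that rose stand beside 3.01% of all genes higher by limma, 4.92% with litter as a block and 4.05% by DESeq2. Of 12 endothelial and endocardial markers 2 rose and 0 fell (limma; 2 with litter as a block, 4 by DESeq2), and their summed level went from 1885 to 1982 in controls to 2174 to 2279 in KO1 and KO2. Over the same libraries Epas1, an endothelial-rich transcript by background knowledge, went from 55.1 to 64.9 to 60.4 to 65.5. Of 7 epicardial markers 2 rose (summed level 267 to 357 in controls, 433 to 477 in KO1 and KO2), and 5 rose with litter as a block. Of 6 markers of smooth muscle and pericytes 2 rose (1089 to 1422, then 2223 to 2270.3), and 3 with litter as a block. Of 4 measured atrial markers 1 rose in either fit (4730 to 5622, then 6107 to 7553). Of 6 mesenchymal, 8 erythroid, 4 macrophage and 2 glial markers measured, 0 were called in the main comparison by limma, edgeR or DESeq2, with 1 mesenchymal and 1 glial marker higher and 1 glial marker lower at an unadjusted p under 0.05. With litter as a block, limma called 1 mesenchymal marker higher, the matrix proteoglycan gene Dcn (log2 0.66, adjusted p = 0.00085). It also called 1 erythroid marker lower, the globin gene Hbb-bs (-0.77, adjusted p = 7.6e-05), in a fit where 3.21% of all genes were lower. No marker measured in these lists was at 0 in all libraries.

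Levels of different genes were compared per kilobase of exon, from GENCODE M21. In controls Hif1a was the most abundant subunit transcript, at 73.96 ± 4.70 scaled CPM per kb (SD, n = 3), higher than 95.95% of measured genes with a length. Hif3a followed at 22.1 ± 0.169, then Epas1 at 10.99 ± 0.975 and Arnt at 9.96 ± 0.299. Arnt2 was the lowest at 2.63 ± 0.168, higher than 28.9% of genes. The ranges of Epas1 and Arnt overlapped over the controls, and those of the other neighbours in this order did not. The order of these 2 depended on the gene length used: per kilobase of the longest transcript, Arnt was at 18.4 ± 0.553 and Epas1 at 11.1 ± 0.988.

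In KO1 and KO2 Hif1a was still the most abundant by exon length, at 31.4 and 27.6 per kb, but nearer to Hif3a at 20.8 and 20.7. Per kilobase of coding sequence the knockout values of Hif1a (73.8 and 64.8) and of Hif3a (69.9 and 69.8) overlapped, where in controls they were 174 ± 11.04 and 74.6 ± 0.570. The Hif1a mean was 3.34 times that of Hif3a in controls and 1.42 times in KO1 and KO2 by exon length.

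The make-up of the alpha pool shifted accordingly. By exon length, Hif1a made up 69.5%, 68.3% and 69.3% of alpha subunit mRNA in controls 1 to 3 and 49.2% and 46.7% in KO1 and KO2. In the library labelled KO3 it made up 69.3%. The share of Hif3a was 20.7% ± 1.05 (SD, n = 3) in controls and 32.5% and 35.1% in KO1 and KO2. The share of Epas1 was 10.2% ± 0.378 in controls and 18.3% in each of KO1 and KO2, although the Epas1 level itself did not pass the test. Within the beta pool Arnt made up 79.1% ± 1.43 in controls and 80.5% and 77.04% in KO1 and KO2. The alpha shares depended on the length used. Per kilobase of coding sequence, Hif1a made up 63.9% ± 0.911 in controls and 43.8% and 41.1% in KO1 and KO2. Hif3a then made up 27.5% ± 1.26 in controls and 41.5% and 44.3% in KO1 and KO2, so neither gene led in both knockouts.

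**Figure D3:**
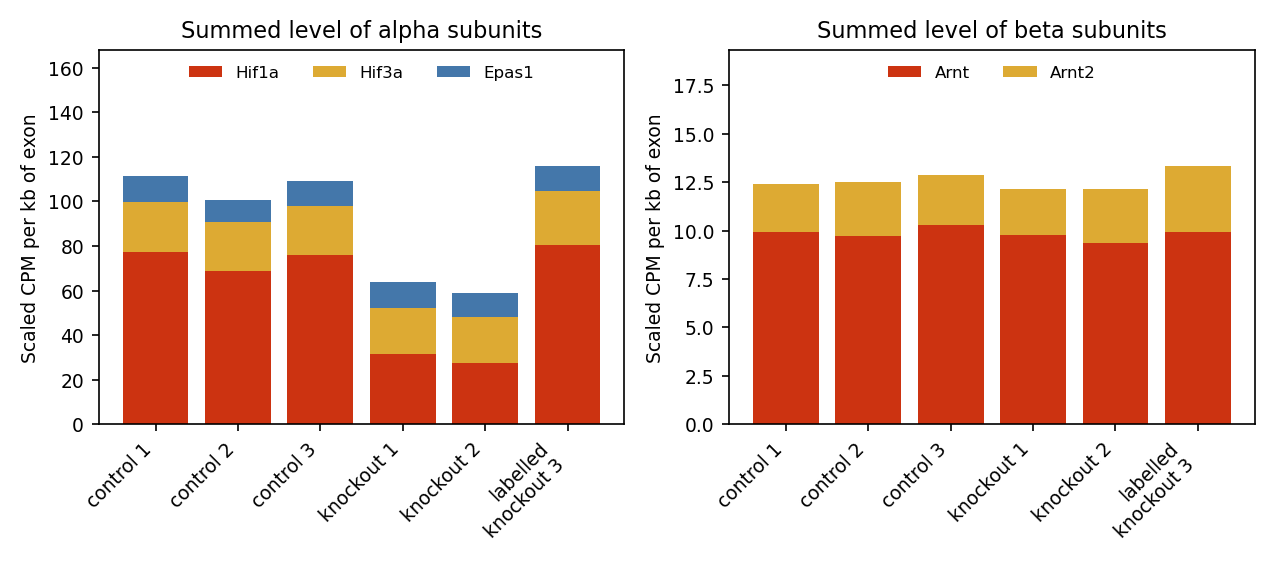
Stacked levels of the alpha subunit genes (left) and beta subunit genes (right) in each library, in scaled CPM per kb of exon. The alpha sum is 63.9 and 59.1 in KO1 and KO2 and 100.5 to 115.7 in the other 4 libraries, while the beta sum lies between 12.2 and 13.3 in all 6.

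Ratios within a library give the same comparison without the scaling between libraries. They are given by exon length unless another length is named. Hif1a exceeded Epas1 6.67, 6.96 and 6.60 times in controls 1 to 3 and 2.68 and 2.55 times in KO1 and KO2, a log2 difference of -1.37. Hif1a exceeded Arnt 7.82, 7.08 and 7.37 times in controls and 3.21 and 2.94 times in KO1 and KO2. The sum of alpha over the sum of beta subunits was 8.51 ± 0.473 (SD, n = 3) in controls and 5.26 and 4.86 in KO1 and KO2, a log2 difference of -0.75. For all 3 ratios the groups did not overlap, and the two-sided exact permutation test gave p = 0.1, also after Benjamini-Hochberg adjustment over the 3, which is the smallest that 3 against 2 libraries allow. With all 6 libraries as labelled, the exact permutation p was 0.4, 0.3 and 0.4 for Hif1a over Epas1, alpha over beta and Hif1a over Arnt. In the library labelled KO3 the ratios were 7.33, 8.69 and 8.09 in that order. The size of each ratio depended on the length used. Per kilobase of the longest transcript, Hif1a exceeded Arnt 5.27, 4.77 and 4.97 times in controls and 2.16 and 1.98 times in KO1 and KO2. Alpha over beta was then 5.84 ± 0.306 in controls and 3.46 and 3.23 in KO1 and KO2. Per kilobase of coding sequence it was 6.32 ± 0.331 in controls and 4.06 and 3.78 in KO1 and KO2.

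The Hif1a locus holds an antisense gene, Gm15283 (chromosome 12, 73843039 to 73949814, minus strand), which was looked up after the value of Hif1a had been seen. It spans all of Hif1a and shares 330 bases of exon with it. Gm15283 measured 1.66, 1.01 and 1.15 in controls, 3.80 and 2.63 in KO1 and KO2, and 1.37 in the library labelled KO3. KO1 and KO2 lay above all controls, opposite in direction to Hif1a. Its log2 fold change was 0.89 ± 0.24 and did not pass (limma adjusted p = 0.099), nor did it between littermates (0.055). These values rest on 11 to 15 reads in the controls and 47 and 30 in KO1 and KO2. The libraries did not mark strand, so reads from the shared bases cannot be assigned to either gene with certainty. Hif1a itself had 2291 and 1855 reads in KO1 and KO2.

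The nearest measured genes beside Hif1a, also looked up afterwards, did not pass the test. On one side Prkch, a protein kinase C gene 123190 bases away, had a log2 fold change of 0.10 ± 0.09. The amino acid transporter Slc38a6, 547326 bases away, had one of 0.18 ± 0.13. On the other side the fold change was 0.09 ± 0.17 for Snapc1, 16951 bases away, a subunit of a complex that transcribes small nuclear RNAs. For the small GTPase Rhoj, 1360792 bases away, it was 0.28 ± 0.15.

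**Figure D4:**
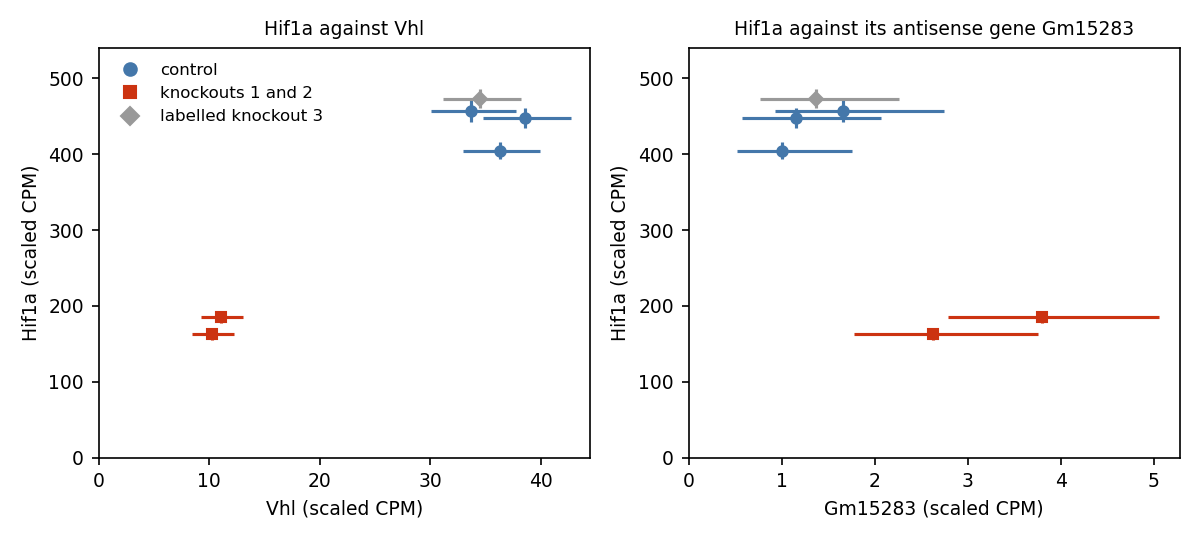
Hif1a against Vhl (left) and against the antisense gene Gm15283 (right) in each library, in scaled CPM, with 95% Poisson intervals for counting error. The library labelled KO3 lies with the controls in both panels (Hif1a 473, Vhl 34.5, Gm15283 1.37), and KO1 and KO2 lie at low Hif1a, low Vhl and higher Gm15283.

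Genes whose pattern over the 6 libraries was most like that of each subunit gene were found by Pearson correlation of log2(value + 1) among 9610 genes, as a description in which all points share their libraries. Those most like Hif1a were Abat (r = 0.999), Camk2a (0.997) and Aldh5a1 (0.996). Abat and Aldh5a1 encode consecutive enzymes of the breakdown of the transmitter GABA, and Camk2a encodes a calcium-dependent kinase. Abat was at 118, 109 and 113 in controls, 64.3 and 59.3 in KO1 and KO2, and 124 in the library labelled KO3. Aldh5a1 was at 86.4, 78.8 and 86.95 in controls, 51.2 and 44.9 in KO1 and KO2, and 84.9 in the library labelled KO3. All 3 fell in KO1 and KO2, Abat by 0.87, Camk2a by 0.40 and Aldh5a1 by 0.80 on the log2 scale. Like Hif1a, they were low in those 2 libraries, which set this likeness.

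The genes most like the other subunit genes did not pass the test between controls and KO1 and KO2. Hif3a was followed most closely by Cdh13 (r = 0.991), Tnnt1 (0.985) and Prep (0.983), of which Cdh13 encodes a cadherin and Tnnt1 a troponin. Each of these, like Hif3a, was highest in the library labelled KO3 and lowest in KO1 and KO2. Epas1 was most like Mrps12 (0.987), Zdhhc13 (0.984) and Qpct (0.980), which shared its low value in control 2. Arnt was most like Map2k4 (0.992), Rictor (0.978) and Gcsh (0.975), and Arnt2 was most like Wdr90 (0.984), Prpf38b (0.983) and Trappc9 (0.979).

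Other members of the bHLH-PAS family, to which all 5 subunits belong, showed no call by limma in the main comparison. That comparison called 4.25% of all genes. Of 7 measured members of 11, 0 rose and 0 fell (limma), with 2 higher and 1 lower at an unadjusted p under 0.05, and a median log2 fold change of 0.08 beside -0.01 over all genes. The edgeR test also called 0, where it called 2.94% of all genes higher, and DESeq2 called 1 higher, where it called 4.05%. That gene was Arntl, which encodes the clock protein BMAL1. Arntl was at 5.99, 7.47 and 9.23 in controls and 12.9 and 13.7 in KO1 and KO2 (limma adjusted p = 0.069; littermates 0.0057). Npas4, an activity-induced factor of neurons, was at 5.44, 5.45 and 4.30 in controls and 7.84 and 9.46 in KO1 and KO2 (limma adjusted p = 0.087).

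Among the genes that control the alpha proteins, those for 2 of the oxygen sensors rose. Of 10 genes of hydroxylation and the VHL complex, 2 rose and 1, Vhl, fell, with a median of -0.01. Of all genes 3.01% rose and 1.24% fell. Vhl is the floxed gene, and its value set the library labelled KO3 apart, so its fall is no result about this list. The 2 that rose are also in the list of HIF targets. The prolyl hydroxylase gene Egln1 was at 108, 111 and 109 in controls and 297 and 319.7 in KO1 and KO2 (log2 1.49 ± 0.07). Egln3, another prolyl hydroxylase gene, was at 6.99, 15.4 and 14.5 in controls and 49.5 and 54.8 in KO1 and KO2 (log2 2.07 ± 0.29). Its call was lost without KO1 (limma adjusted p = 0.071) and without KO2 (0.068), which leave 1 knockout each. The other 7, among them the remaining parts of the VHL ligase, did not pass.

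Of 22 coactivators and modulators of HIF, 1 rose and 0 fell, with a median of -0.02. That count is near the share of all genes, of which 3.01% rose and 1.24% fell. Between littermates 3 rose, in a fit where 4.92% of all genes rose. The 1 that rose in the main comparison was Pkm, a glycolytic enzyme gene one of whose products is known to bind HIF-1. Pkm was at 1690.1, 1693 and 1546 in controls and 3510 and 3153 in KO1 and KO2 (log2 1.02 ± 0.11). Ncoa1, a nuclear receptor coactivator, was at 49.02 ± 3.99 in controls and 36.3 and 38.03 in KO1 and KO2 (limma adjusted p = 0.070).

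Factors known to act on transcription of the Hif1a gene or on its mRNA showed no call by limma in the main comparison, where 4.25% of all genes were called. Of 11 such genes 0 rose and 0 fell, with 1 higher and 1 lower at an unadjusted p under 0.05 and a median of 0.01. The edgeR test called 0 and DESeq2 called 1 higher, Ptbp1, where it called 4.05% of all genes higher. Ptbp1, an RNA-binding protein, was at 203, 227 and 210.3 in controls and 249.7 and 270.2 in KO1 and KO2 (limma adjusted p = 0.099). Stat3, a factor activated by cytokines, was at 74.8 ± 1.03 in controls, 60.6 and 66.8 in KO1 and KO2 and 65.4 in the library labelled KO3 (limma adjusted p = 0.16).

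HIF target genes rose in the same 2 libraries in which Hif1a mRNA fell. Of 25 measured targets of 26, 22 rose and 0 fell, with a median log2 fold change of 1.19, where 3.01% of all genes rose and 1.24% fell and the median over all genes was -0.01. The list was assembled with earlier results of these data known and its count is not independent support. Smallest p-values belonged to P4ha2, a collagen prolyl hydroxylase (log2 2.17 ± 0.08), Egln1, the adenylate kinase Ak4 (1.43 ± 0.06) and the mitochondrial protein gene Higd1a (1.56 ± 0.09). Higd1a was at 50.1, 55.8 and 55.3 in controls, 172 and 149.4 in KO1 and KO2, and 54.6 in the library labelled KO3. With all 6 libraries as labelled, 0 of the 25 passed, and the median was 0.81.

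**Figure D5:**
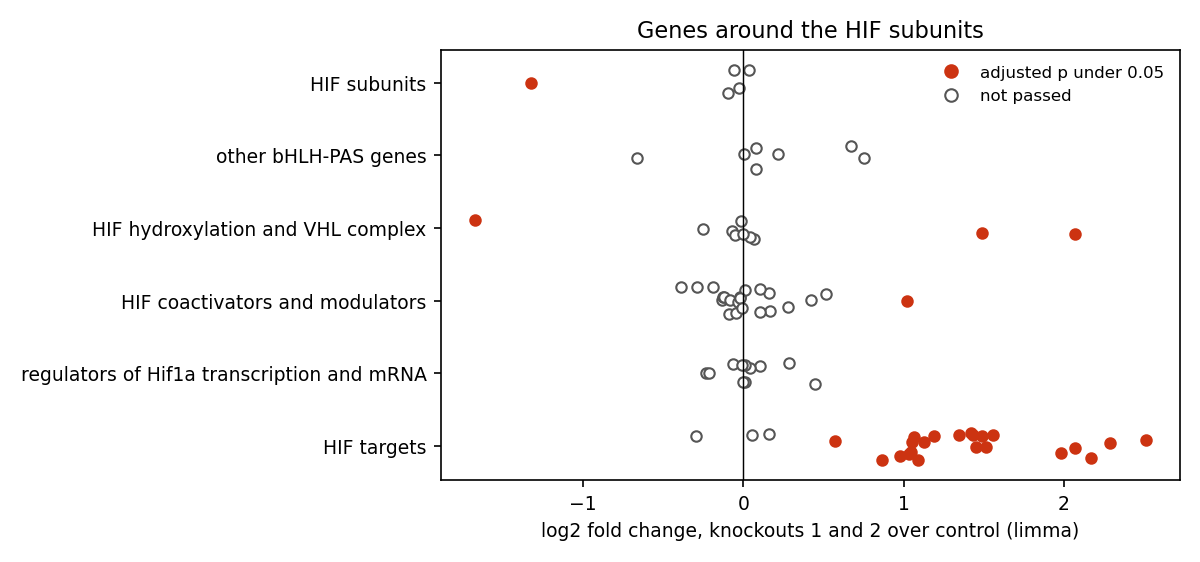
Log2 fold change of KO1 and KO2 over control for each measured gene of the HIF subunits and of 5 lists around them, with vertical scatter added for visibility. Filled points passed limma's adjusted p of 0.05: 1 of 5 subunit genes on the lower side, 22 of 25 HIF targets on the higher side, and 4 of the 50 genes in the other lists. Those 4 are Egln1 and Egln3, which are also among the 22 targets, the floxed gene Vhl, and Pkm. Of all genes 4.25% passed.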

How the data were processed

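Polyadenylated RNA of 3 control ventricles and 3 labelled Vhl knockout was sequenced as single reads. Per the submitters' processing notes, CASAVA 1.8.2, cutadapt 1.3, RSEM 1.2.3 and GRCm38 were used. How genes were filtered and values scaled, and the annotation release, are not given in the sources used here. Values in the deposited table are a signal per gene, called scaled CPM here: in each column 100% of values were whole multiples of 1 step (tolerance 0.01 reads), and the steps equalled edgeR's TMM effective library sizes at a ratio of 1. All genes listed reached 1 in 3 or more libraries. GENCODE M21 gave symbols for 13675 genes, and lengths.

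The test was limma 3.58.1 with trend (R 4.3.3) on log2(value + 1) over 13843 genes, with Benjamini-Hochberg adjusted p under 0.05. A fold change on this scale understates the change of low genes. The test was checked on simulated data. Each embryo is 1 library, so p-values measure the spread between embryos. Limma draws each gene's variance towards that of other genes at a like level. Its p-values therefore rest in part on the spread of other genes, with 3 residual degrees of freedom in the main fit and 1 with litter as a block. Alternatives were a pseudocount of 0.5, a mean of at least 10, a common total, edgeR 4.0.16 and DESeq2 1.42.0 on recovered reads, single libraries left out, KO3 kept, and litter as a block. Pairing comes from the labelled litters: deviations from group means correlated at 0.2 within litter 1, 0.28 within litter 2 and 0.01 for the number 3, whose embryos came from different litters. The knockout mean used there included the library labelled KO3, so these correlations also carry its difference from KO1 and KO2. Named genes are the subunits, Vhl, the 3 genes most like each subunit (mean of at least 10), and up to 4 called members of each pathway list, or the 2 with the smallest p. Members and lists were chosen with earlier results of these data known. Intervals on reads cover counting error only. RSEM shares out reads of similar or overlapping genes, and strand was not marked.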

Additional observations from a re-analysis of the deposited data

Results flagged for a closer look

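The library labelled KO3 took no part in the main comparison, and 3 subunit genes had a value in it above all 3 controls. The same held for 22.2% of all genes, against 3 of 5 subunit genes, and no test was made of that difference. Hif1a was at 473 beside a highest control of 457, and the 95% Poisson interval of 460.2 to 486 overlapped that of control 1 (443 to 471). Hif3a was at 164.6 (157 to 172.4) beside 149.9 (142 to 158). Arnt2 was at 26.1 (23.2 to 29.3) beside 21.6 (19.1 to 24.5). The intervals cover counting error only.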

How the results depend on the processing

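The fall of Hif1a kept its direction and its call under each alternative except the one with KO3 included (-0.84), and ranged from -1.42 to -1.23 with single libraries left out. Counts of all genes called moved more. From 416 higher and 172 lower they went to 0 and 0 with KO3 included and to 681 and 444 with litter as replicate block, which left 1 residual degree of freedom, and DESeq2 put 276 lower. With 1 library left out they ranged from 146 to 297 higher and from 44 to 90 lower. The lowest counts, 146 and 44, came without KO1, which left 1 knockout assumed to vary like the controls, without control 2 they were 219 and 60, without control 3 259 and 83, and without KO2 236 and 55. Omission of control 1 gave 90 lower genes. Fold changes that did not pass changed sign in some fits: Epas1 was at -0.037 without control 2 and -0.020 without KO1, and Arnt2 at 0.10 with KO3 included, 0.022 without control 2 and 0.086 without KO1. The leave-one-out ranges were -0.037 to 0.095 for Epas1 and -0.14 to 0.086 for Arnt2. Hif3a and Arnt stayed below 0 without a call in each fit. The 3 ratios stayed below 0 in each alternative, none of which allows a p under 0.1, and litter as replicate block changed no call of a subunit gene. Of 60 alternative fold changes of subunit genes, 54 kept direction and call. Depth limits Arnt2, with 173 to 285 reads, and Gm15283, with 11 to 47.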
